A study of Homo sapiens with 2 samples.

Results

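The human mitochondrial genome encodes 7 subunits of respiratory complex I, and their transcripts are MT-ND1, MT-ND2, MT-ND3, MT-ND4, MT-ND4L, MT-ND5 and MT-ND6. They were found by gene symbol in the deposited tables of counts and of FPKM (fragments per kilobase of gene, scaled to the depth of the library), where they are 7 of 20981 genes. The cells were labelled PANC-1, an established human line from a carcinoma of the pancreatic duct, and carried a short hairpin RNA, a control one in shCtrl and one against WBSCR22 in shWBSCR22. The gene is now named BUD23 and encodes a methyltransferase that acts on the 18S ribosomal RNA. Each group had 1 library, 2 in all, so every difference below is between 2 libraries, has no replicate check and carries no p-value. The sources used here do not state the time after transfection, the promoter of the hairpin or any selection of the cells.

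The libraries held 16121638 counts in shCtrl and 15248099 in shWBSCR22. BUD23 had 3487 counts in shCtrl and 1892 in shWBSCR22, 39.1% lower after scaling (log2 ratio -0.72). The epithelial keratins KRT7, KRT8 and KRT18 and the mucin MUC1 were abundant in both libraries, KRT8 with 77459 and 64689 counts, and the mesenchymal filament VIM had 6624 and 5685. KRT19 had 0 counts in both libraries, EPCAM 15 and 0, and CDH1 2 and 0. CDKN2A, which is recorded as homozygously deleted in PANC-1, had 12740 and 6346 counts, so the identity of the line was taken from the labels alone. Among markers of other cell types, 4 of 5 fibroblast genes were found with summed counts of 945 and 1970, most of them COL1A1, and 2 of 6 leukocyte genes with 883 and 21, from LYZ (191 and 0) and MPO (692 and 21). In the endothelial list PECAM1 had 14 and 46 counts and CDH5 had 0 in both libraries. The part of these genes in the values below was not tested.

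Complex I passes electrons from NADH to ubiquinone and pumps protons across the inner mitochondrial membrane. Its membrane arm is built around the proteins of these 7 transcripts, and all other subunits are encoded in the nucleus and imported. Mitochondrial DNA is transcribed from both strands into long precursors that are cut at the transfer RNAs that lie between most genes. MT-ND6 is the only protein-coding gene read from the light-strand promoter, while the other 6 complex I transcripts come from the heavy-strand precursor together with the mRNAs of cytochrome b, cytochrome oxidase and ATP synthase and both ribosomal RNAs. MT-ND6 mRNA in human cells is also known for lacking a regular poly(A) tail.

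The strand of origin shows in the letters of the transcripts, and the first 120 bases of MT-ND6 are set beside those of MT-ND5, which abuts it on the opposite strand, and of MT-ND2 for that reason. Sequences are from GENCODE release 29 transcripts on GRCh38, 5′ to 3′, with T for U, and capitals mark runs of at least 3 G. MT-ND6 lies at chrM:14554-14673 on the minus strand, MT-ND5 at chrM:12337-12456 and MT-ND2 at chrM:4470-4589, both on the plus strand.
MT-ND6: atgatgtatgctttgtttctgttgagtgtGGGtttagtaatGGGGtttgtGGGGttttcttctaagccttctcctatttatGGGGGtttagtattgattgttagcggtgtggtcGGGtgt
MT-ND5: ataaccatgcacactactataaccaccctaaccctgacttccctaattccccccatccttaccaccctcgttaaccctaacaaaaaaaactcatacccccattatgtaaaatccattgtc
MT-ND2: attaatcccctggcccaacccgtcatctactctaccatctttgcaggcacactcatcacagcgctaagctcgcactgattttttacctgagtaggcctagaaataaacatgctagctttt
The MT-ND6 stretch held 5 such runs, 40 G and 11 C. MT-ND5 held 0 runs, 5 G and 46 C, and MT-ND2 held 0 runs, 18 G and 37 C.

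Over its whole 525 bases (chrM:14149-14673) MT-ND6 was 35.6% G and 7.05% C, with 19 runs of at least 3 G, or 36.2 per kilobase. The 6 heavy-strand members ranged from 9.50% to 12.1% G and from 29.5% to 36.0% C, with 0 to 3.63 such runs per kilobase. The GC skew, (G − C)/(G + C), was 0.67 in MT-ND6 and between -0.56 and -0.44 in the other 6. The total of G and C did not set MT-ND6 apart, at 42.7% against 40.2% to 47.7%.

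The genes of MT-ND4L and MT-ND4 overlap, and the last 60 bases of MT-ND4L (chrM:10707-10766, plus strand) and the first 60 of MT-ND4 (chrM:10760-10819, plus strand) share the 7 bases in capitals.
MT-ND4L: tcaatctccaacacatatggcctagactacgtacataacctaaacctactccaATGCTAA
MT-ND4: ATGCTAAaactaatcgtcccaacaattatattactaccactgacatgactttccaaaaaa
In human cells this pair stays on 1 bicistronic mRNA, so how a counting program divides its reads between the genes affects both values. The sources used here name neither the counting program nor its rule for shared reads or strand, and the labels name a TruSeq RNA kit without a strand step. Without strand, reads of MT-ND6 and of any heavy-strand RNA that runs antisense across it, precursor or processed, cannot be told apart.

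Per length, the 7 transcripts spanned a 23.2-fold range in shCtrl and a 30.6-fold range in shWBSCR22. MT-ND4, which encodes a proton-pumping subunit of the membrane arm, was highest, with 12571 FPKM in shCtrl and 10709 in shWBSCR22. MT-ND2, also a pumping subunit, had 5619 and 3851 FPKM, and MT-ND1, at the junction of membrane arm and ubiquinone site, had 5618 and 4412. In shCtrl the intervals of MT-ND2 and MT-ND1 overlapped, and in shWBSCR22 MT-ND1 was above MT-ND2. MT-ND3, a small subunit with a loop near the ubiquinone site, had 3282 and 2534 FPKM. MT-ND6, next to MT-ND3 and MT-ND4L in the membrane arm, followed with 2483 and 1307. MT-ND4L, a small membrane subunit, had 592 and 350.3 FPKM, and MT-ND5, the pumping subunit at the far end of the arm, 541 and 361. The order of these last members was not resolved in shWBSCR22, and in shCtrl it was resolved by the counting interval but not by a wider one that allows for reads arriving in groups. All 7 levels were lower in shWBSCR22.

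**Figure D1:**
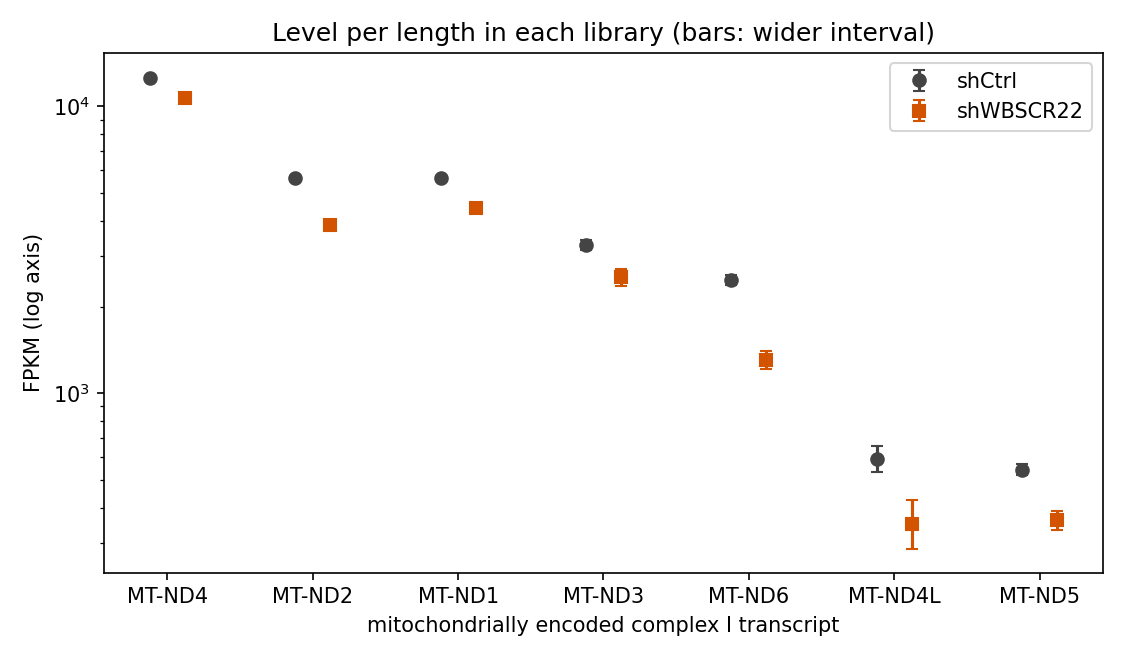
Level of each complex I transcript in FPKM, on a log axis, in the shCtrl library (circles) and the shWBSCR22 library (squares), 1 library per group, with bars for the wider 95% counting interval. Each square sits below its circle, and the distance is largest for MT-ND6 (2483 against 1307 FPKM).

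Differences are log2 ratios, shWBSCR22 over shCtrl, of counts scaled by TMM, with 0.5 counts added to each library. Its counting interval is the exact 95% binomial interval. The wider interval first divides the shCtrl counts by 8 and the shWBSCR22 counts by 15, each the commonest low count of its library, since reads that come in groups are not independent. Reads carry no molecular identifiers, so both intervals cover counting error only and not the spread between cultures. A gene was called where the size of its log2 ratio reached 1 and the counting interval left out 0, which held for 24.1% of the 12980 genes averaging 1 CPM or more (CPM, counts scaled to a library of fixed size). None of the 7 members was called, 0 of 7, against that 24.1% and against 3.24% of the 1635 genes that averaged 100 CPM or more, as all 7 members did. All 7 also had at least 1 CPM, so none was lost to the filter.

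All 7 had a log2 ratio below 0, as did 50.9% of all genes tested. Their wider intervals lay wholly below 0 in 7 of 7, against 8.2% of all genes tested and 21.7% of the genes of at least 100 CPM. Deeper genes have narrower intervals, so these shares also reflect depth. MT-ND4, with a mean of 16097 CPM, left out 0 at a log2 ratio of only -0.14. The median log2 ratio of the 7 was -0.46 (range -0.84 to -0.14). Over all genes tested it was -0.02, and over genes of at least 100 CPM it was 0.07 with quartiles at -0.20 and 0.36. The members of the set share precursors and are not independent of each other. For the level of the 7 against the rest of the library, fewer mitochondria, fewer transcripts per mitochondrion and a change in other RNA cannot be told apart in bulk. Relative to the 6 mitochondrial mRNAs of other complexes, the summed counts of the 7 had a log2 ratio of -0.30 between the libraries (wider interval -0.32 to -0.27). Library scaling cancels in that value, and its cause was not tested.

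**Figure D2:**
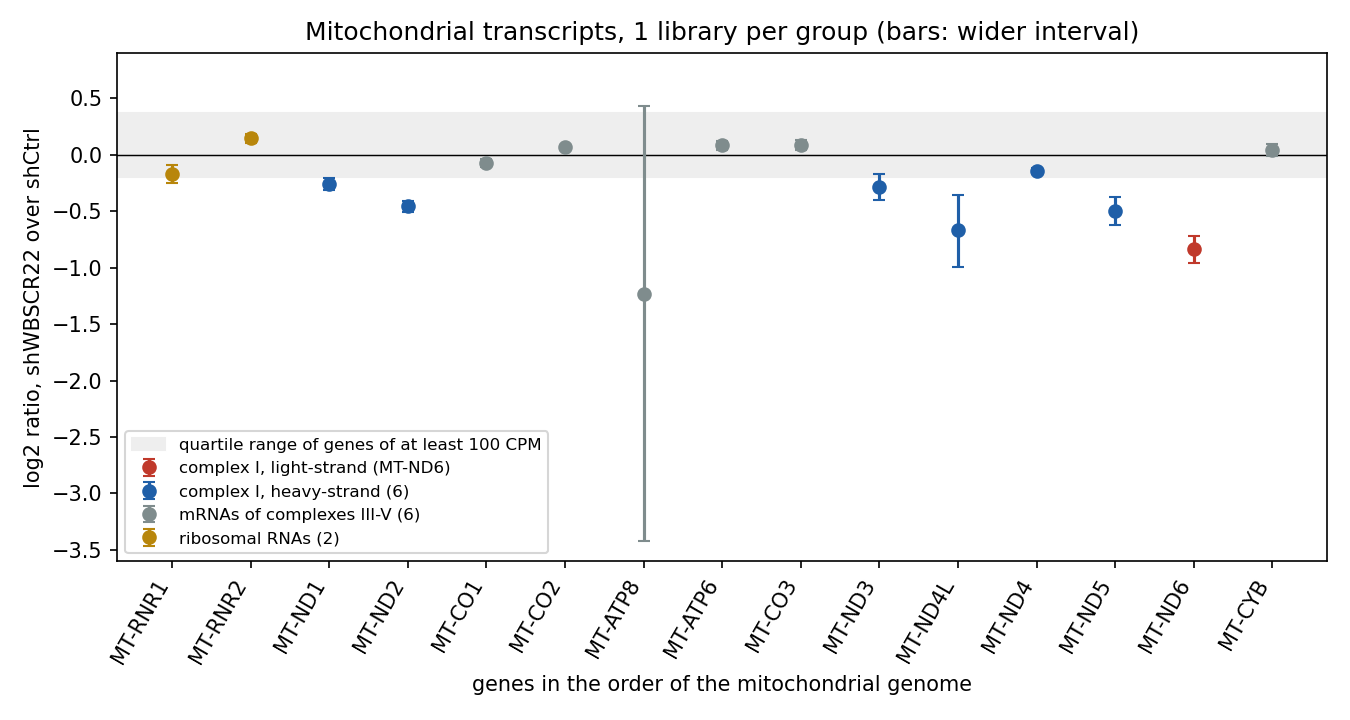
Log2 ratio of shWBSCR22 over shCtrl (TMM-scaled counts) for the 15 mitochondrial transcripts in genome order, 1 library per group, with bars for the wider 95% counting interval and a grey band between the quartiles of genes of at least 100 CPM. All 7 complex I transcripts lie below 0, MT-ND6 lowest of them at -0.84 and MT-ND4 highest at -0.14, while MT-CO2, MT-CO3, MT-ATP6 and MT-CYB lie between 0.04 and 0.09 (all below 0 with total-count scaling).

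In genome order, MT-ND1 (ENSG00000198888, chrM:3307-4262, plus strand) was counted 86848 times in shCtrl and 64573 times in shWBSCR22. Its log2 ratio was -0.26 (wider interval -0.31 to -0.21), or 16.6% lower by value. MT-ND2 (ENSG00000198763, chrM:4470-5511, plus strand) had 94686 and 61438 counts, with a log2 ratio of -0.46 (-0.51 to -0.41). These neighbours differed in their ratios, since MT-ND2 over MT-ND1 had a log2 ratio of ratios of -0.20 (-0.27 to -0.12) between the libraries. MT-ND3 (ENSG00000198840, chrM:10059-10404, plus strand) had 18365 and 13426 counts (log2 ratio -0.29, -0.40 to -0.17).

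MT-ND4L (ENSG00000212907, chrM:10470-10766, plus strand) had the fewest counts, 2843 and 1593, with a log2 ratio of -0.67 (-0.996 to -0.35). MT-ND4 (ENSG00000198886, chrM:10760-12137, plus strand) had the most, 280129 and 225944, and the ratio nearest to 0, -0.14 (-0.17 to -0.12). Although both are read from 1 bicistronic mRNA, MT-ND4L over MT-ND4 differed between the libraries by -0.53 on the log2 scale (-0.84 to -0.21), and MT-ND4L held 1.01% of the MT-ND4 count in shCtrl and 0.705% in shWBSCR22. MT-ND5 (ENSG00000198786, chrM:12337-14148, plus strand) had 15867 and 10011 counts (log2 ratio -0.50, -0.63 to -0.37). MT-ND6 (ENSG00000198695, chrM:14149-14673, minus strand) had 21077 and 10508 counts, with a log2 ratio of -0.84 (-0.96 to -0.72) that corresponds to 44.1% lower.

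Set against genes of at least 100 CPM, these ratios ran from the far tail to well inside the bulk. A lower ratio than that of MT-ND6 was seen in 1.47% of those genes, than MT-ND4L in 3.67%, than MT-ND5 in 8.07% and than MT-ND2 in 9.48%. For MT-ND3, MT-ND1 and MT-ND4 the shares were 18.5%, 20.1% and 29.5%. Lower ratios went with lower levels: over the 7 members Spearman's rho between mean FPKM and log2 ratio was 0.82, and over the 13 mitochondrial mRNAs it was 0.86, or 0.82 without the very shallow MT-ATP8 (n = 12). Over the 13 mRNAs rho between gene length and log2 ratio was 0.34. These transcripts share 2 libraries and mostly 1 precursor, so the coefficients describe these libraries and have no p.

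The composition of the set shifted with these differences. MT-ND4 made up 53.9% (95% Clopper-Pearson interval 53.8% to 54.0%) of the counts of the 7 in shCtrl and 58.3% (58.2% to 58.5%) in shWBSCR22. MT-ND6 went the other way, from 4.05% (4.001% to 4.11%) to 2.71% (2.66% to 2.76%), as did MT-ND2 (18.2% to 15.9%), MT-ND5 (3.05% to 2.58%) and MT-ND4L (0.547% to 0.411%). MT-ND1 stood at 16.7% in both libraries, and MT-ND3 at 3.53% and 3.46%.

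The question of strand was put as the ratio of MT-ND6 to the sum of the 6 heavy-strand complex I transcripts, a quantity that does not depend on how the libraries are scaled. As no strand setting is stated, the MT-ND6 count here and below may include antisense heavy-strand reads. MT-ND6 mRNA also lacks a regular poly(A) tail, and whether its capture relative to heavy-strand mRNAs differed between the libraries was not tested. MT-ND6 amounted to 4.23% of that sum in shCtrl and to 2.79% in shWBSCR22, so that 23.7 and 35.9 heavy-strand counts stood against each MT-ND6 count. The log2 ratio of ratios was -0.60 (counting interval -0.63 to -0.57, wider interval -0.72 to -0.48). The summed heavy-strand members themselves went from 498738 to 376985 counts, with a log2 ratio of -0.24 (-0.26 to -0.22), and from 3.09% to 2.47% of the library.

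The size of the gap depended on which heavy-strand transcript stood in the denominator. Over MT-ND4 it was -0.69 (-0.82 to -0.57), over MT-ND1 -0.58 (-0.71 to -0.45) and over MT-ND3 -0.55 (-0.72 to -0.39). Over MT-ND2 it was -0.38 (-0.51 to -0.25) and over the abutting MT-ND5 -0.34 (-0.51 to -0.17). Over MT-ND4L it was -0.17, and the counting interval (-0.26 to -0.07) left out 0 while the wider one (-0.50 to 0.17) held it. MT-ND4 holds most of the heavy-strand counts, and without it the ratio to the other 5 members was -0.47 (-0.60 to -0.35). MT-CYB, which encodes cytochrome b of complex III and flanks MT-ND6 on its other side, had 70692 and 64872 counts, and MT-ND6 over MT-CYB was -0.88 (-1.01 to -0.75). Against all 12 heavy-strand mRNAs the value was -0.78 (-0.90 to -0.66).

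**Figure D3:**
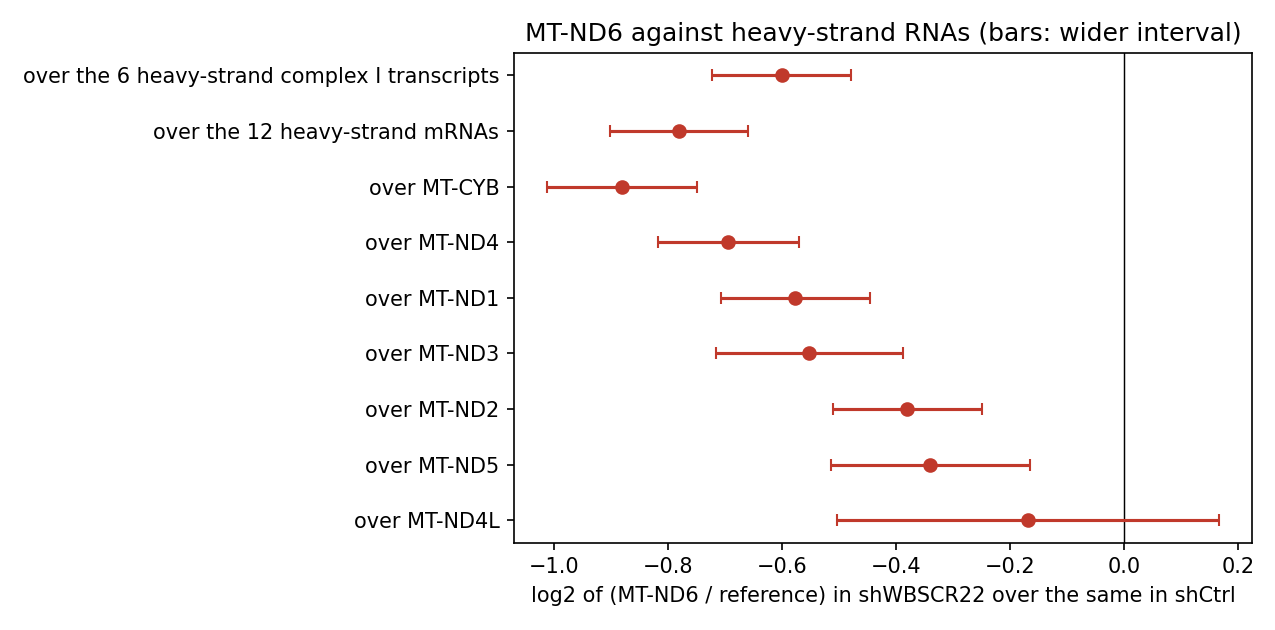
Log2 ratio of MT-ND6 to each heavy-strand reference in shWBSCR22 over the same ratio in shCtrl, from counts, 1 library per group, with bars for the wider 95% interval. The points run from -0.88 over MT-CYB to -0.17 over MT-ND4L, and the bar over MT-ND4L alone crosses 0.

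The ratios differed among heavy-strand transcripts, and in summed counts those of complex I stood below the mRNAs of the other complexes. Single genes did not all follow that order, since MT-ATP8 lay below every complex I transcript and MT-RNR1 below MT-ND4. The 6 heavy-strand complex I transcripts together had 60.3% of the counts of the 6 mRNAs of the other complexes in shCtrl and 49.7% in shWBSCR22, a log2 ratio of ratios of -0.28 (-0.30 to -0.25). Without MT-ND4 it was -0.41 (-0.44 to -0.37). The 7 members went from 38.6% (38.5% to 38.7%) to 33.8% (33.7% to 33.9%) of the counts of the 13 mRNAs.

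The 6 other mRNAs summed to 826726 and 758044 counts, with a log2 ratio of 0.04 (0.03 to 0.06) that turned to -0.04 when the libraries were scaled by total counts. MT-CO1, the catalytic subunit of cytochrome oxidase, had 172762 and 146380 counts (-0.07, -0.11 to -0.04). MT-CO2 (0.07, 0.04 to 0.09), which takes electrons from cytochrome c, MT-CO3 (0.09, 0.04 to 0.13), another core subunit of the oxidase, and MT-ATP6 (0.08, 0.04 to 0.12), of the proton channel of ATP synthase, had ratios above 0 that turned to -0.02, -0.00016 and -0.0041 with total-count scaling. MT-CYB did the same, with 0.04 (-0.01 to 0.09) and -0.04. MT-ATP8, also of ATP synthase, had only 141 and 53 counts over 207 bases, of which 46 overlap MT-ATP6. Its log2 ratio of -1.24 was called lower by the counting interval, while the wider interval of -3.42 to 0.43 held 0.

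Pairs along the precursor showed where the ratios stepped. MT-ND2 over the following mRNA MT-CO1 was -0.38 on the log2 scale (-0.45 to -0.32), and MT-ND3 over the preceding MT-CO3 was -0.37 (-0.49 to -0.25). The ribosomal RNAs head the heavy-strand precursor. MT-RNR1, of the small mitochondrial ribosomal subunit, had 35567 and 28215 counts (-0.17, -0.25 to -0.09), and MT-RNR2, of the large one, 142909 and 140688 (0.14, 0.11 to 0.18). MT-ND1, which follows MT-RNR2, had a log2 ratio of ratios to it of -0.40 (-0.47 to -0.34). All 15 mitochondrial transcripts together made up 9.46% of the counts in shCtrl and 8.62% in shWBSCR22. The 22 mitochondrial transfer RNAs were not found by symbol and so were not analysed here.

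Nuclear copies of mitochondrial genes could take or give reads. The table held 15 pseudogenes of the complex I members, with summed counts of 333 in shCtrl and 252 in shWBSCR22, against 519815 and 387493 for the members. MTND2P28, a copy of MT-ND2, had the most with 205 and 108, and MTND6P4, a copy of MT-ND6, had 17 and 0. The sources used here do not say how reads that match both were divided.

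The nuclear partners of these 7 proteins did not show lower values as a group. All 7 nuclear core subunits, which carry the flavin, the iron-sulphur clusters and part of the ubiquinone site, were measured, with a median log2 ratio of 0.20 (0.12 with total-count scaling). NDUFV2 lay near the 1 CPM filter, with 12 and 20 counts and a wider interval of -4.07 to 5.61. By size 0 of 7 were called, against 12.2% of all genes called higher and 11.9% called lower, and the wider interval lay above 0 for 2 and below 0 for none. These were NDUFS8, an iron-sulphur subunit, with 17347 and 20820 counts (0.43, 0.33 to 0.53), and NDUFV1, which binds NADH and flavin, with 9697 and 10809 (0.32, 0.19 to 0.46). Of 30 accessory subunits 29 were measured, with a median of 0.17 (0.08 with total-count scaling), 0 called, and wider intervals above 0 for 9 and below 0 for 2. Those above 0 included NDUFB1 (719 and 1180 counts, 0.88), NDUFA3 (4811 and 7380, 0.78), NDUFC2 (1490 and 2054, 0.63) and NDUFA2 (1809 and 2455, 0.61), and those below 0 were NDUFB4 (-0.41) and NDUFB9 (-0.32). Across all genes tested the wider interval lay above 0 in 10.8% and below 0 in 8.2%. Those shares include many shallow genes, whose intervals are wider, so they are not matched to these subunits in depth.

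Summed over the 7 core subunits of each origin, mitochondrially encoded transcripts had 64.3 times the FPKM of the nuclear ones in shCtrl and 41.8 times in shWBSCR22. The numerator went from 30706 to 23525 FPKM and the denominator from 477 to 563. By medians the ratio was 204.5 and 145.6. The gene lengths behind the nuclear FPKM were not checked, and the size of these ratios depends on them. The 19 complex I assembly factors, all measured, had a median log2 ratio of -0.18, with 0 called higher (12.2% of all genes) and 1 lower (11.9%), and among genes of at least 30 CPM the median was 0.03. The 1 called was NDUFAF4, with 483 and 197 counts (-1.13, -2.11 to -0.25), while NDUFAF3, which acts with it, had 4668 and 4940 (0.25, 0.05 to 0.45).

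**Figure D4:**
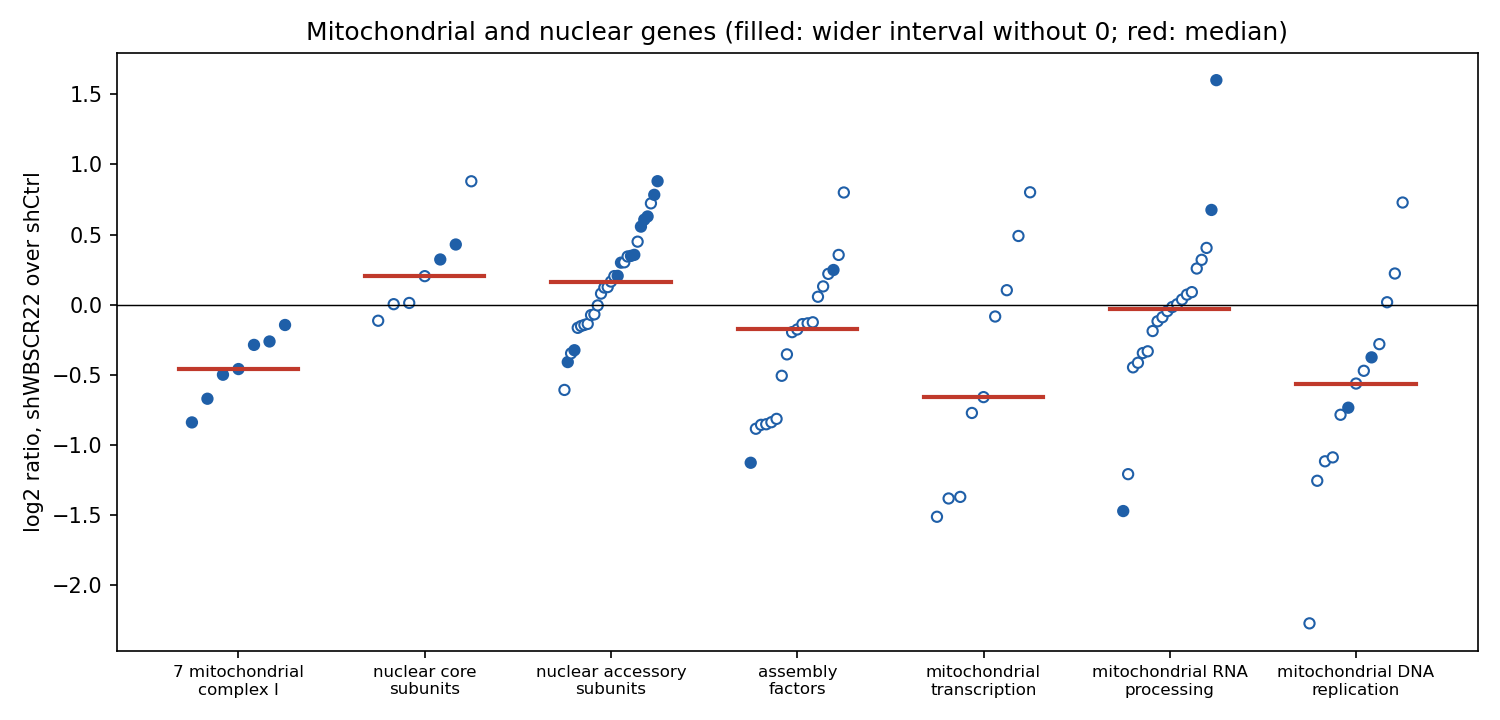
Log2 ratio of shWBSCR22 over shCtrl for each measured gene of the 7 mitochondrial complex I transcripts and 6 nuclear lists, 1 library per group, filled where the wider 95% interval leaves out 0, with the median of each list as a red line. The medians are -0.46 for the mitochondrial transcripts, 0.20 and 0.17 for nuclear core and accessory subunits, -0.18 for assembly factors, -0.66 for transcription, -0.03 for RNA processing and -0.56 for DNA replication.

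Genes that make and process mitochondrial RNA were counted as lists. The 9 genes of mitochondrial transcription had a median log2 ratio of -0.66, with 0 called higher and 3 lower, against 12.2% and 11.9% of all genes tested, but all 9 wider intervals held 0 and the median was 0.08 among genes of at least 30 CPM and -0.21 from log2(FPKM + 1). TFAM, which packages mitochondrial DNA and bends its promoters, had 169 and 58 counts (-1.37), and TFB2M, which opens promoters, had 81 and 25 (-1.51). MTERF2, a mitochondrial DNA-binding protein of the termination factor family, had 36 and 12 (-1.38). POLRMT, the mitochondrial RNA polymerase, was the deepest of those named here, with 5308 and 5084 counts and a log2 ratio of 0.10. The 13 genes of mitochondrial DNA replication had a median of -0.56, 0 called higher and 4 lower, against the same 12.2% and 11.9%. The 4 were RNASEH1, LIG3, TK2 and RRM2B, whose wider intervals all held 0. TWNK, the replicative helicase, had 657 and 352 counts (-0.73, -1.46 to -0.06), and TOP3A, a topoisomerase that separates daughter molecules, had 4379 and 3010 (-0.37, -0.62 to -0.14).

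Of 21 genes of mitochondrial RNA processing and stability 20 were measured, with a median of -0.03 (-0.12 with total-count scaling). Of these 1 was called higher and 2 lower, near or below the 12.2% and 11.9% of all genes. FASTK, whose mitochondrial isoform is needed for mature MT-ND6 mRNA, had 3947 counts (64.1 FPKM) in shCtrl and 5619 (96.5 FPKM) in shWBSCR22 (log2 ratio 0.68, 0.48 to 0.87). The gene-level count does not separate its isoforms. GRSF1, an RNA-binding protein of mitochondrial RNA granules that binds G-rich light-strand RNA such as MT-ND6, had 849 and 596 counts, and its wider interval held 0 (-0.34, -0.91 to 0.19). PRORP, listed under its older symbol KIAA0391 and the nuclease that cuts the 5′ ends of transfer RNAs out of the precursors, had 70 and 190 counts (1.60, 0.25 to 3.04). PTCD1, a pentatricopeptide protein of mitochondrial RNA metabolism, had 318 and 102 (-1.47, -2.90 to -0.29). The other one called lower, FASTKD1, of the same family as FASTK, had 50 and 19 counts (-1.21, -5.81 to 1.58). LRPPRC and SLIRP, which together stabilise heavy-strand mRNAs, had log2 ratios of -0.05 and 0.04.

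Of genes with a mean level between 0.5 and 2 times the CPM of MT-ND6, 253 with MT-ND6 itself, 3 had a lower log2 ratio, or 1.19%. Within that range of levels, the 5 nearest to MT-ND6 in log2 ratio were CDKN2A (-0.84), a CDK inhibitor, GAPDH (-0.83), a glycolytic enzyme, PLP2 (-0.83), a membrane protein, SRM (-0.78), spermidine synthase, and HMGA1 (-0.92), a chromatin protein. This likeness rests on 1 ratio from 2 libraries.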

How the data were processed

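Per the labels' protocols, total RNA was made into libraries with a TruSeq RNA kit, 1 per group. Named in the submitters' processing notes are GRCh38, HISAT2, StringTie, DESeq, FastQC and bcl2fastq, without versions or roles, but no counter, annotation or strand setting. The authors deposited whole-number raw counts per gene and FPKM per gene. The deposited FPKM of the 15 mitochondrial genes equal count over annotated gene length in kilobases and over a divisor that is the same for all 15 genes of a library.

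Genes of at least 1 mean CPM (12980) were scaled by TMM (edgeR 4.0.16, R 4.3.3; factors 1.03 and 0.971), and log2 ratios were taken with 0.5 counts added. Intervals are 95% conditional binomial (Clopper-Pearson), or Woolf's for ratios of ratios, also from counts divided by 8 and 15. The log2 ratios, their intervals and calls, and the interval for ratios of ratios were checked on simulated counts. The scaling factors, the choice of 8 and 15, the list medians, shares, levels and sequences were not. No p-value was computed, with 1 library per group. Alternatives were total-count, DESeq2 (1.42.0), upper-quartile and nuclear-gene TMM scaling, 2 counts added, log2(FPKM + 0.1) and log2(FPKM + 1), other filters on low counts, the wider interval and other heavy-strand references.

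The members and lists were chosen with earlier results of these data known. Named were the 7 members, the other mitochondrial transcripts, BUD23, FASTK, GRSF1, up to 4 genes per list with the largest log2 ratio in size among those whose wider interval left out 0, and the 5 genes nearest to MT-ND6 in log2 ratio among those at 0.5 to 2 times its mean CPM. TFAM, TFB2M, MTERF2, POLRMT, LRPPRC, SLIRP, FASTKD1, RNASEH1, LIG3, TK2, RRM2B, NDUFV2, NDUFB4, NDUFB9, the pseudogenes and the markers shown were picked after their values were seen. Acinar and endocrine markers were not found by symbol and so were not analysed here.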

Additional observations from a re-analysis of the deposited data

How the results depend on the processing

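The log2 ratios of the 7 complex I transcripts stayed below 0 in 49 of 49 values from other scalings, added counts and units, with MT-ND6 between -0.93 and -0.83 and MT-ND4 between -0.23 and -0.13. Each alternative moved all 7 ratios by nearly the same amount in the same 2 libraries, so the 49 values are not independent checks. The heavy-strand sum (-0.24) was -0.32 by total counts, -0.23 by DESeq2, -0.22 by upper quartile, -0.35 from FPKM with 0.1 or 1 added, and -0.37 without MT-ND4. MT-ND6 against the heavy strand (-0.60) was -0.78 over 12 mRNAs, -0.34 over MT-ND5, -0.88 over MT-CYB, and -0.47 both without MT-ND4 and against the median member. Leaving out MT-ND4, the MT-CYB reference and the 100 CPM filter were chosen after seeing the data. The count of called genes (3132, 50.6% higher) was 6679 without a filter, 189 at 30 CPM (60.3% higher), 53 at 100 CPM (86.8% higher), 931 with the wider interval and 975 from FPKM with 1 added. Of 80 list medians under alternatives 7 had the opposite sign, among them transcription (0.08) and assembly (0.03) at 30 CPM and the nuclear copies without a filter (-0.76), and the cause was not tested. No paired analysis was possible because each group had 1 library, and for the same reason no library could be left out. MT-ATP8 and the transcription factors' low counts limit what depth can show.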
